A study of Homo sapiens with 6 samples.

Results

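Small nucleolar RNA (snoRNA) genes were examined in RNA sequencing of IMR90 cells, a line of primary fibroblasts from human fetal lung. The 2 groups of 3 libraries were cells with a short hairpin RNA against luciferase, a gene that human cells do not have (control), and cells with a hairpin against macroH2A1 (knockdown), a variant of histone H2A. The cells grew in medium with fetal bovine serum, and neither group carried a further treatment in the labels. The series calls the libraries biological replicates without saying how the cultures were separated, so p-values measure the spread between these libraries, which may be technical. A gene was included when GENCODE 29 gives its Ensembl identifier the type snoRNA and its raw counts summed to at least 60 over the 6 libraries. This held for 253 of the 831 snoRNA genes in the count files, of 57659 gene rows in all. They comprised 107 C/D box genes (symbols starting SNORD), 75 H/ACA box genes (SNORA) and 71 genes under other names, nearly all the identifier of an RNA family (RF followed by digits) and here called family-named; SCARNA10, SCARNA18, RNU105B and RNU105C are counted with them. Of the snoRNA genes not included, 275 had 1 to 59 counts in all and 303 had none.

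SnoRNAs are short RNAs that guide enzymes to chosen nucleotides of ribosomal and spliceosomal RNA. C/D box snoRNAs bind fibrillarin and direct methylation of ribose, H/ACA box snoRNAs bind dyskerin and direct the change of uridine to pseudouridine, and a few of either kind are needed to cut the precursor of ribosomal RNA. Most human snoRNAs lie in introns of host genes and are released after splicing, when exonucleases trim the intron down to the ends that the bound proteins protect.

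The C/D box genes that passed the test between knockdown and control, with values given further on, are shown first with the letters that define the class. Capitals mark a C box written NTGATGA within the first 25 bases and the last CTGA, the D box, within the last 25 bases, both read on the strand of the RNA. The sequences and coordinates are those of GENCODE 29 on GRCh38; the counts were made on hg19, so no position was carried between the builds. SNORD66 lies at chr3:184325696-184325771 (plus strand) in an intron of EIF4G1, SNORD124 at chr17:40027542-40027645 (minus strand) in an intron of MED24, SNORD105B at chr19:10109757-10109835 (plus strand) in an intron of PPAN and SNORD116-16 at chr15:25082768-25082859 (plus strand) in an intron of SNHG14. SNORD88C lies at chr19:50802328-50802418 (minus strand) in C19orf48P and overlaps an exon of it. SNORD32B lies at chr6:29582249-29582332 (plus strand) opposite GABBR1, and SNORD96B at chrX:110224985-110225063 (minus strand) in an intron of AMMECR1; the gene with the same number and letter A is printed under each, since both pairs are alike.
SNORD66: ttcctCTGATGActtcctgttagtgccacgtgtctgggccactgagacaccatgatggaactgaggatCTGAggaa
SNORD124: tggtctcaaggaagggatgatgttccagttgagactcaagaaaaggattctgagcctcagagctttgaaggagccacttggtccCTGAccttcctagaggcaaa
SNORD105B: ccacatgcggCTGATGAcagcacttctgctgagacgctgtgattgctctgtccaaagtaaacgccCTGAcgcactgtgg
SNORD88C: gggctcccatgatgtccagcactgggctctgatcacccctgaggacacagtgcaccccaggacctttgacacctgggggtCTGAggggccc
SNORD116-16: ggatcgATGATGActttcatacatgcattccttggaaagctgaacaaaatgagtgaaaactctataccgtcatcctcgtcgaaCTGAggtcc
SNORD32B: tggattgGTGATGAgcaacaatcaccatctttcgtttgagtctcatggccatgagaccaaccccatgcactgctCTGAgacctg
SNORD32A: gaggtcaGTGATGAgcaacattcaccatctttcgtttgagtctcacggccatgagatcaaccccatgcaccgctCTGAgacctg
SNORD96B: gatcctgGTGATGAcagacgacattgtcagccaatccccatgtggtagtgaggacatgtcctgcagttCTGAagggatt
SNORD96A: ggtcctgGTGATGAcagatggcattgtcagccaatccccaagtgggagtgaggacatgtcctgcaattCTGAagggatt

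The H/ACA box genes that passed are SNORA26, at chr4:52713249-52713370 (plus strand) in an intron of DANCR, SNORA77, at chr1:203729581-203729705 (plus strand) in an intron of ATP2B4, and SNORA15B-2, at chr7:65760052-65760186 (plus strand) in the pseudogene CCT6P1. SNORA15, at chr7:56060470-56060602 (plus strand) in an intron of CCT6A, is printed beside SNORA15B-2 because the pair are copies. RF00402 (ENSG00000201701), at chr3:32037526-32037653 (plus strand) opposite OSBPL10, had the largest fitted log2 fold change of the 239 members tested and is added for that reason. Capitals mark ACA within the last 8 bases.
SNORA26: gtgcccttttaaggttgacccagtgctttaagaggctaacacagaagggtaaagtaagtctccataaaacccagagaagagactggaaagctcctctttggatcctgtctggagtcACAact
SNORA77: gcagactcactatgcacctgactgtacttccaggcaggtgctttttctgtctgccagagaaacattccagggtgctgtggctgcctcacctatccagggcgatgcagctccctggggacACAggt
SNORA15B-2: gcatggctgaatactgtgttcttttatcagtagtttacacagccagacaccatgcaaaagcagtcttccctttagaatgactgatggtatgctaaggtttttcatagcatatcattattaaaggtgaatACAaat
SNORA15: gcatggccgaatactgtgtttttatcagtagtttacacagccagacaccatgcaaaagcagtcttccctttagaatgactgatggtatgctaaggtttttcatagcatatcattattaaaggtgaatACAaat
RF00402: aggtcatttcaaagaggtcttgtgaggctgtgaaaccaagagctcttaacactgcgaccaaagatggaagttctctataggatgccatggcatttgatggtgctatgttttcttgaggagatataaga

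The letters followed the class names in most members. Both boxes were found in 82 of the 107 SNORD members (76.6%) and in 67.3% of the 278 SNORD genes of GENCODE 29, and in none of the 75 SNORA members. ACA near the end was found in 71 of the 75 SNORA members (94.7%; 89.8% of the 147 SNORA genes of GENCODE 29) and in 9 of the 107 SNORD members. Of the 71 family-named members, 4 had both boxes and 34 had ACA. No match says only that these letters are absent from these windows. SNORD members had a median length of 84 bases and SNORA members of 134. A host gene on the same strand held 100 of the 107 SNORD, 69 of the 75 SNORA and 32 of the 71 family-named members.

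The libraries held 3741087 to 6421605 counts assigned to genes. MACROH2A1, the targeted gene, had 582, 385 and 321 counts in control replicates 1 to 3 and 197, 201 and 149 in the knockdown, a fold change of -1.11 on the log2 scale (SE 0.08, edgeR adjusted p = 0.000917). All 8 fibroblast markers were present, at 7339 to 8377 counts per 1000000 (CPM) summed in control and 11795 to 12534 in knockdown libraries. Of the 8, 5 rose at an edgeR adjusted p under 0.05, beside 3.90% of all genes tested. Markers of epithelial, endothelial and blood cells summed to at most 3, 11 and 4 counts in any library. Reads outside annotated features made up 8.34% to 9.43% of the reads in control and 10.6% to 11.3% in knockdown libraries; reads without a unique alignment made up 67.6% to 68.8% and 64.4% to 66.6%. Their part in the results on snoRNA genes was not tested.

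Of the 239 members with enough counts to be tested, 15 rose and 2 fell in the knockdown at an adjusted p under 0.05 (edgeR quasi-likelihood test, Benjamini-Hochberg over the 13445 genes tested). This is 7.11% of the members, near the 8.21% called among all genes tested. The members called higher made up 6.28% and those called lower 0.837%, beside 3.90% and 4.31% over all genes. Among SNORD genes 6 rose, 1 fell and 99 did not pass; among SNORA genes 2 rose, 1 fell and 71 did not pass; among family-named genes 7 rose, none fell and 52 did not pass. The other 14 members had too few counts to be tested. Of the 239, 200 passed the filter on low counts in all 3 libraries of each group, 17 did so in the knockdown group alone, 2 in the control group alone and 20 only over libraries of both groups together. A member that passed through the group where it is high had to differ, so the calls of the 4 that rose among the 17 (SNORD32B, SNORA15B-2, RF00402 and RF01210) are partly set by the filter. Of the 200, 11 rose and 2 fell. In bulk RNA, a change in the RNA per cell and a change in the cells present cannot be told apart. Fewer members passed when a control library was left out: 5 without control replicate 1, 4 without replicate 2 and 9 without replicate 3, while over all genes 436, 427 and 564 passed in place of 1104. Without knockdown replicates 1, 2 and 3, 8, 13 and 12 members passed, and 531, 550 and 517 of all genes.

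Most fold changes of members were small and positive. The fold change was above 0 for 79 of 106 SNORD genes (74.5%), 57 of 74 SNORA genes (77.03%) and 43 of 59 family-named genes, and for 50.8% of all genes tested. The median log2 fold change was 0.25 for SNORD, 0.14 for SNORA and 0.43 for family-named genes, beside 0.01 over all genes tested. Of the 200 members that passed the filter in both groups, 155 had a positive fold change, and the median was 0.23. Other types of RNA in the same libraries also had medians above that of protein-coding genes (-0.01): 0.31 for 315 genes of small nuclear RNA, of which 71.4% had a positive fold change, and 0.22 for 82 long intergenic RNA genes. Smaller medians were found for 793 processed pseudogenes (0.09, 59.1% positive) and 674 genes typed as miscellaneous RNA (0.07, 55.6% positive), below those of the 3 snoRNA classes. The 3 knockdown libraries all lay above the 3 control libraries for 62 of the 239 members (25.9%, beside 14.5% over all genes tested) and all below for 5 (2.09%, beside 15.9%). Counted in either direction, the share without overlap was 28.0% of the members, near the 30.4% of all genes tested. The 239 include 17 members that passed the filter in the knockdown group alone, so part of the 62 is set by the filter. The count without overlap is not given for the 200.

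**Figure D1:**
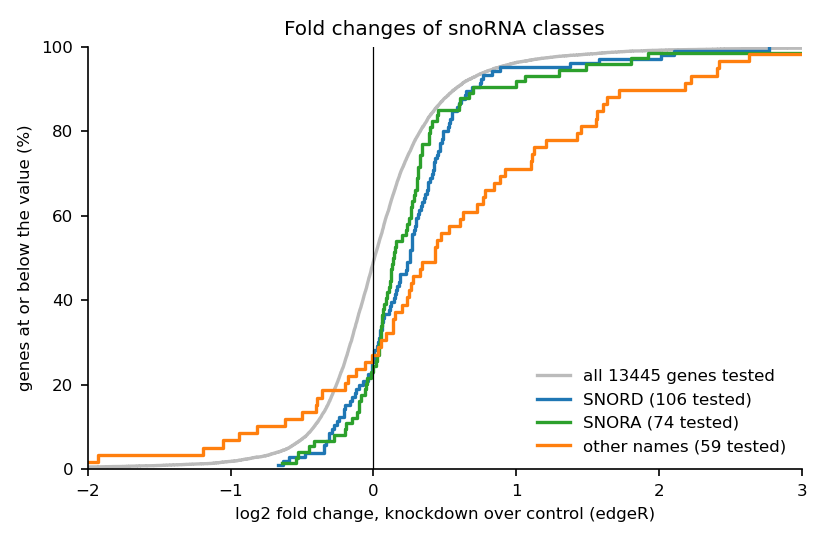
The x axis is the log2 fold change of knockdown over control from edgeR, cut at -2 and 3, and the y axis the percent of genes at or below each value; each line is a class of snoRNA genes and the grey line all 13445 genes tested. The SNORD and SNORA lines cross 0 near 25%, the grey line near 50%, and the family-named line is the widest.

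The fold changes were also read by level and by copy number. When each class was split into 3 bins of like size by mean CPM, 21 of 35 tested SNORD genes of the lowest bin had a positive fold change, and 30 of 36 of the highest bin. In the highest bin 17 of 36 genes (47.2%) had knockdown libraries all above the controls, beside 14.5% over all genes tested. That share covers genes of every level, and none for genes of like level is given. Replicates also differed less there: the median coefficient of variation in control was 11.2%, against 18.6% in the lowest bin. Among SNORA genes the counts were 16 of 24 in the lowest and 19 of 25 in the highest bin. Members with copies, defined as another small RNA gene at least 95% identical over at least 90% of the shorter sequence, and members without were counted apart: 66 of 90 tested SNORD genes without a copy had a positive fold change, and 13 of 16 with one.

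The summed share of the gene counts showed the same order of groups. SNORD members together took 1.42%, 1.38% and 1.24% of the gene counts in control replicates 1 to 3 and 1.63%, 1.56% and 1.44% in knockdown replicates 1 to 3. SNORA members took 2.36%, 2.32% and 2.02% in the controls and 2.50%, 2.50% and 2.39% in the knockdown. In both classes the lowest knockdown library lay just above the highest control library, and in both the third replicate was the lowest of each group. This separation did not hold without the most abundant member of each class. Without SNORD10, knockdown replicate 3 (1.268%) lay below control replicate 1 (1.274%). Without SNORA73B, knockdown replicate 3 (1.611%) lay below control replicates 1 and 2 (1.651% and 1.618%). With all members, the ratio of the group means was 1.14 for SNORD (1.35% ± 0.093 in control and 1.54% ± 0.1 in knockdown; SD, n = 3) and 1.1 for SNORA (2.23% ± 0.19 and 2.46% ± 0.0598). Without SNORA73B the SNORA ratio was 1.07. Family-named members took 0.128% to 0.167% in control and 0.171% to 0.204% in knockdown libraries. Their ratio of 1.27 became 1.53 without SNORA31B (ENSG00000253051, RF00322 in GENCODE 29), the family-named member with the most counts.

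**Figure D2:**
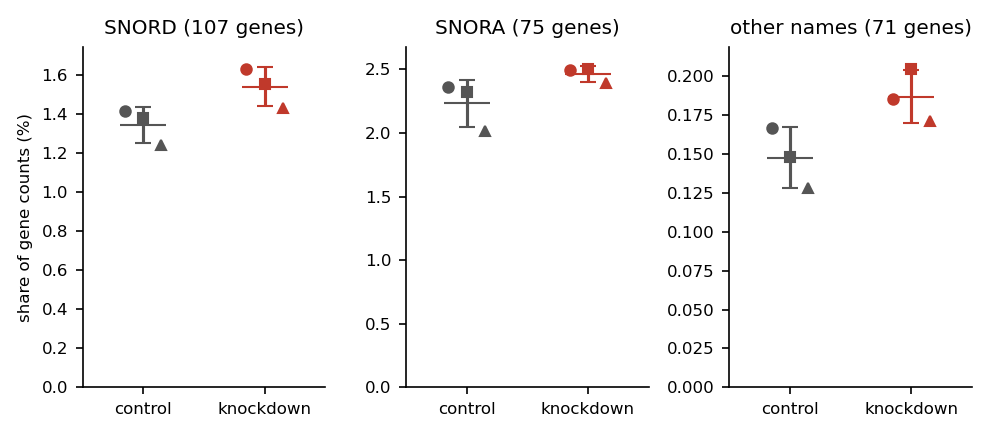
The y axis is the percent of a library's gene counts that fell on the members of each class, from 0, and points are libraries (circle, square and triangle for replicates 1, 2 and 3) with the group mean and SD. Knockdown libraries lie above control libraries in each panel, with ratios of the means of 1.14 and 1.1 for SNORD and SNORA.

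Among C/D box genes, SNORD66 rose with the most counts behind it. It had 1802, 1470 and 1333 counts in control replicates 1 to 3 and 3043, 2692 and 1763 in the knockdown, which is 324.5 ± 35.1 CPM in control and 553 ± 70.6 in the knockdown (SD, n = 3). All knockdown libraries lay above all control libraries, and the fold was 1.7 (log2 fold change 0.77, SE 0.13, edgeR adjusted p = 0.016). Its host EIF4G1, a scaffold of translation initiation, had a fold change of -0.26 on the log2 scale (SE 0.07, edgeR adjusted p = 0.0821). The call on SNORD66 was lost in 5 of 15 other settings.

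SNORD124 rose by a smaller fold with less spread. It had 209, 144 and 106 counts in the controls and 255, 210 and 178 in the knockdown, 31.3 ± 2.88 and 47.9 ± 2.39 CPM, with no overlap of the groups. The fold was 1.53 (log2 fold change 0.61, SE 0.09, edgeR adjusted p = 0.012). MED24, its host and a subunit of the Mediator complex, had a log2 fold change of -0.11 (SE 0.19). SNORD124 was one of 3 members, with SNORD32B and RF00402, that kept their call in every one of the 15 other settings. SNORD32B and RF00402 were admitted through their knockdown counts, so their kept calls are not free of that choice.

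SNORD105B was the only SNORD member called lower. Counts were 402, 265 and 190 in the controls and 190, 191 and 137 in the knockdown, 58.1 ± 7.02 and 38.6 ± 2.58 CPM, and the CPM values of the groups did not overlap. Control was 1.51 times the knockdown (log2 fold change -0.59, SE 0.11, edgeR adjusted p = 0.0227). The host PPAN, a factor of large ribosomal subunit assembly, had 10, 8 and 4 counts in the controls and 1, 6 and 3 in the knockdown, too few to be tested.

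SNORD88C and SNORD116-16 also rose. SNORD88C had 49, 47 and 39 counts in the controls and 101, 74 and 54 in the knockdown, with a fold of 1.75 (log2 fold change 0.83, SE 0.19, edgeR adjusted p = 0.0463), and lost the call in 7 of 15 settings. The other 2 snoRNAs of its host, SNORD88A and SNORD88B, had log2 fold changes of 0.74 (SE 0.24) and 0.25 (SE 0.32), and the host C19orf48P 0.41 (SE 0.20); none of these passed. SNORD116-16 had 298, 201 and 143 counts in the controls and 346, 395 and 248 in the knockdown, with a fold of 1.69 (log2 fold change 0.75, SE 0.13, edgeR adjusted p = 0.02). For both genes the CPM values of the groups did not overlap. SNORD116-16 has 9 copies by the criterion above, so its counts are those of reads that aligned to it alone and are uncertain.

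Among the C/D box genes that passed, the largest fold changes were in SNORD32B and SNORD96B, each a relative of a better known snoRNA. SNORD32B had 12, 21 and 9 counts in the controls and 117, 83 and 74 in the knockdown, 3.03 ± 1.56 and 20.3 ± 2.58 CPM, so every knockdown library lay well above the controls. The fold was 6.72 (log2 fold change 2.77, SE 0.32, edgeR adjusted p = 0.00449), though the gene reached the count sum and passed the filter only through the knockdown libraries. GABBR1, a receptor subunit gene on the opposite strand, had a fold change of 0.54 on the log2 scale (SE 0.23, edgeR adjusted p = 0.203). The 84 bases of SNORD32B and SNORD32A, printed above, are identical at 75 and differ at 9, and SNORD32A, in the ribosomal protein gene RPL13A, was listed with 0 counts in every library. Without a stated strand setting of the counting, reads of the strands cannot be told apart here.

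SNORD96B had 23, 12 and 13 counts in the controls and 99, 75 and 24 in the knockdown, 3.27 ± 0.469 and 14.1 ± 6.85 CPM. The third knockdown library was much lower than the other two but still above the controls. The fold was 4.31 (log2 fold change 2.11, SE 0.43, edgeR adjusted p = 0.0315), and the call was lost in 7 of 15 settings. The 48 counts of the controls alone fell short of the count sum for members, which the gene reached only with the knockdown libraries. Neither the fold nor the p is free of that choice, although SNORD96B passed the filter on low counts in both groups. SNORD96B is identical to SNORD96A at 73 of 79 bases. AMMECR1, its host, had a log2 fold change of 0.11 (SE 0.09).

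Of the H/ACA box genes, SNORA26 rose. It had 2659, 2093 and 1644 counts in the controls and 3041, 3410 and 2520 in the knockdown, 445 ± 30.2 and 673 ± 70.1 CPM, without overlap. The fold was 1.51 (log2 fold change 0.60, SE 0.10, edgeR adjusted p = 0.0183). Its host DANCR, a long noncoding RNA, had a fold change of 0.44 on the log2 scale (SE 0.18, edgeR adjusted p = 0.192). The call on SNORA26 was lost in 5 of 15 settings.

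SNORA77 was the only SNORA member called lower, and its host fell too. SNORA77 had 1479, 1036 and 794 counts in the controls and 742, 745 and 592 in the knockdown, 227 ± 14.8 and 156 ± 8.0 CPM, without overlap (log2 fold change -0.54, SE 0.08, edgeR adjusted p = 0.011). ATP2B4, a calcium pump of the plasma membrane in whose intron it lies, fell from 442 ± 19.96 to 239 ± 9.44 CPM (log2 fold change -0.89, SE 0.07, edgeR adjusted p = 0.00163). It was the only pair in which member and host were both called lower.

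SNORA15B-2 had 1, 15 and 3 counts in the controls and 43, 47 and 61 in the knockdown. The summed counts, corrected for library totals, stood at a ratio of 8.60 (95% interval 5.32 to 14.7, counting error only; log2 fold change 3.07, SE 0.71, edgeR adjusted p = 0.0472), and the call was lost in 8 of 15 settings. The gene reached the count sum of 60 and the filter only through the knockdown libraries, so it had to differ between the groups. Its 135 bases are identical to those of SNORA15B-1, so a read that lies wholly inside them fits both genes. SNORA15B-1 had 15, 12 and 36 counts in the controls and 115, 36 and 67 in the knockdown, with groups that touch in raw counts and overlap in CPM (log2 fold change 1.80, SE 0.60, edgeR adjusted p = 0.124). SNORA15 had 68, 32 and 25 counts in the controls and 39, 52 and 30 in the knockdown, a log2 fold change of 0.11 (SE 0.26).

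**Figure D3:**
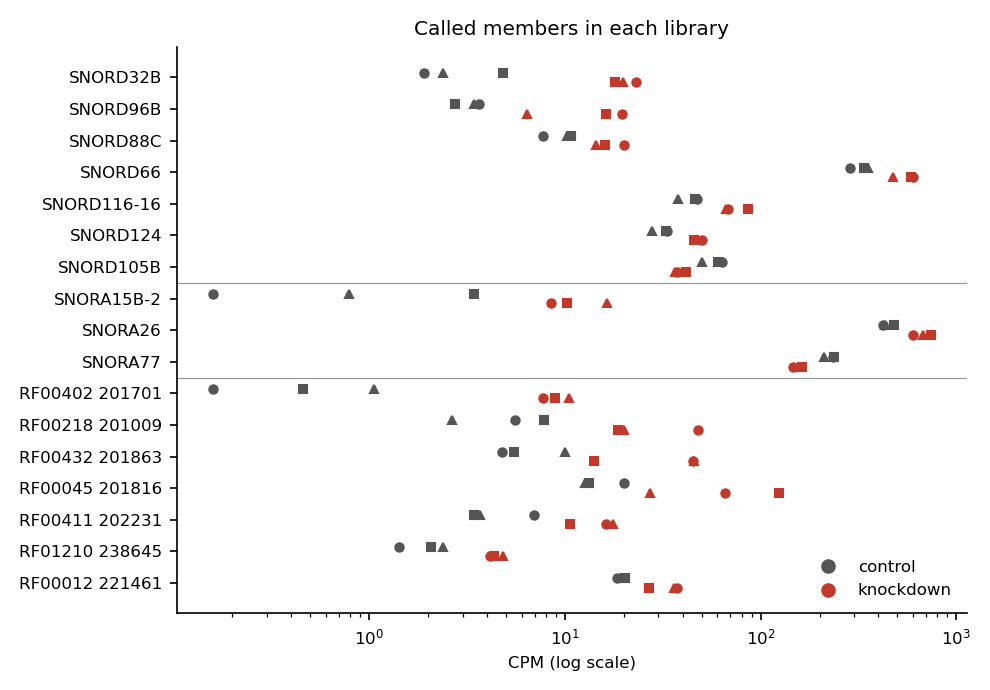
The x axis is CPM on a log scale, and each row is a member that passed the test (SNORD, SNORA and family-named genes from top to bottom, the last with the final digits of their Ensembl identifiers); points are libraries, grey for control and red for knockdown, with circle, square and triangle for replicates 1, 2 and 3. In every row the groups do not overlap, and the knockdown lies to the left only for SNORD105B and SNORA77.

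None of the 5 SNORD and 5 SNORA members with the most counts passed the test. Per 100 bases of gene length, the highest mean level was that of SNORA73B, at 3680 CPM, followed by SNORD12 at 1460, SNORD13 at 1406 and SNORD10 at 1125. SNORD10, in EIF4A1, had 1434 ± 107 CPM in control and 1762 ± 76.9 in the knockdown (log2 fold change 0.30, SE 0.09, edgeR adjusted p = 0.109), and SNORD15B, in the ribosomal protein gene RPS3, 1223 ± 80.5 and 1611 ± 157 (0.40, SE 0.11, edgeR adjusted p = 0.0683). The groups of both did not overlap in CPM. SNORD12, in ZFAS1, had a log2 fold change of 0.12 (SE 0.14). Among abundant SNORA genes, SNORA66 had 0.40 (SE 0.13), SNORA48 0.05 (SE 0.08), SNORA13 -0.09 (SE 0.12) and SNORA53 -0.45 (SE 0.23). SNORA53 had 1695, 1306 and 895 CPM in the controls and 880, 1094 and 877 in the knockdown, with control libraries that spread over more than the distance between the groups.

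SnoRNAs that act in cutting the ribosomal RNA precursor did not pass the test. Of 15 genes listed for this role, 8 had a row in the files, 4 were tested and none was called. SNORA73B, also named U17 or E1, had 45643, 30941 and 24256 counts in the controls and 43156, 36564 and 29325 in the knockdown. In CPM the groups did not overlap (6902 ± 432 and 8114 ± 368; log2 fold change 0.23, SE 0.11, edgeR adjusted p = 0.261). SNORD13 (U13), which has its own promoter, had 1460 ± 235 and 1464 ± 343 CPM (log2 fold change 0.00, SE 0.19, edgeR adjusted p = 0.996). It has 1 copy by the criterion above, so its counts are uncertain. SNORD14E (U14) had a log2 fold change of 0.48 (SE 0.29) and SNORD3B-2, a U3 gene with 5 copies, 0.34 (SE 0.35). SNORD118 (U8) and SNORD14B, SNORD14C and SNORD14D were listed at 0 in all libraries, and the other 7 had no row and were not analysed here.

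Of the 303 snoRNA genes listed at 0, 75 (24.8%) overlapped an exon of their host, most of them SNORD or SNORA genes. In GENCODE 29, 27 of the 34 SNORA genes with 0 counts (79.4%) and 39 of the 69 such SNORD genes (56.5%) overlapped an exon of a transcript of their host. The overlap was found for 7 of 75 SNORA members (9.33%), 20 of 107 SNORD members (18.7%), none of 14 SNORA genes with 1 to 59 counts and 2 of 53 such SNORD genes. Family-named genes, most of them without a host, overlapped one in 9 of 200 cases at 0 counts (4.5%) and in 2 of 71 members (2.82%). SNORD118, SNORD14B, SNORD14C, SNORD14D and SNORD32A were among the overlapping genes, and SNORD14E, with 2766 counts in all, was not. In the union mode of the counting program named in the file names, reads that overlap more than 1 gene are set aside as ambiguous. These were 1.51% to 1.85% of the reads, and their part in the zeros was not tested. A 0 was therefore not read as absence of the snoRNA.

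The imprinted clusters carry long runs of C/D box genes without a known target in ribosomal RNA. In the chromosome 15 cluster, 18 of 25 SNORD116 genes were members and 17 were tested, while none of the 43 SNORD115 genes reached the count sum. Of the 17, 1 rose, SNORD116-16 (5.88%, beside 3.90% called higher over all genes tested). The median log2 fold change of the 17 was 0.25, and their host SNHG14, the long transcript of the Prader-Willi region, had 79.4 ± 9.00 CPM in control and 87.0 ± 7.03 in the knockdown (log2 fold change 0.13, SE 0.11, edgeR adjusted p = 0.513). The family spread widely: SNORD116-15 had 40, 7 and 9 counts in the controls and 17, 89 and 84 in the knockdown (log2 fold change 2.02, SE 0.76), and SNORD116-19 had 73, 5 and 8 and then 12, 26 and 8 (-0.63, SE 0.84). Both have 8 copies and neither passed.

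In the chromosome 14 cluster, 6 of 8 SNORD113 genes and 16 of 29 SNORD114 genes were members, and none of the 22 passed. The median log2 fold change was -0.04 for SNORD113, with 3 of 6 genes above 0, and 0.33 for SNORD114, with 13 of 16 above 0. SNORD114-3, the highest of them, had 120 CPM in control and 145 in the knockdown on average (log2 fold change 0.27). MEG8, the host of the SNORD114 genes, had 91.8 ± 7.25 and 90.8 ± 8.39 CPM (log2 fold change -0.02, SE 0.10), and MIR493HG, annotated as host of the SNORD113 genes, 31.1 ± 0.575 and 32.8 ± 4.20 (0.07, SE 0.11). Neither host passed.

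Host genes were tested beside the snoRNAs they hold. The members lay in 134 hosts, of which 109 were tested, 4 rose and 8 fell (11.01%, beside 8.21% over all genes). The median log2 fold change of the tested hosts was -0.12. The 8 hosts that fell held 12 tested members, of which SNORA77 alone was called; the log2 fold changes of the 12 ran from -0.54 to 0.65 with a median of 0.06, while those of the hosts ran from -0.89 to -0.34. Each of the 12 members had a fold change above that of its host; the hosts were picked by their fall, so this is a description, and the difference within pairs was not tested.

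Among the hosts that fell was NOP58, itself a core protein of C/D box particles. NOP58 went from 38.5 ± 2.83 to 28.8 ± 1.80 CPM (log2 fold change -0.42), while SNORD11 and SNORD70 in its introns had log2 fold changes of 0.42 (SE 0.15) and 0.65 (SE 0.19) and did not pass. SNORD70 had 109, 67 and 60 counts in the controls and 139, 139 and 67 in the knockdown, with no overlap in CPM. NCL, which encodes nucleolin, fell from 202 ± 27.0 to 136 ± 9.14 CPM (log2 fold change -0.57, SE 0.11, edgeR adjusted p = 0.0292). Its members SNORA75, SNORD20 and SNORD82 had log2 fold changes of 0.05, -0.08 and -0.01. HSPA8, a heat shock cognate chaperone, fell by 0.37 on the log2 scale, SNHG16 by 0.54 and TOMM20, a receptor of the mitochondrial outer membrane, by 0.60, with values of 0.48 for SNORD14E, 0.06 for SNORD1B and -0.10 for SNORA14B. Of the hosts that rose, DDX39B, an RNA helicase of messenger RNA export, had 0.55 beside 0.41 for SNORD117, and MAGED2 had 0.36 beside -0.06 for SNORA11. The others that rose held family-named members. N4BP2 had 0.78 beside 2.41 for RF00432, and P4HA3 had 1.49, with its member RF00409 not tested. How much of a member's count came from mature snoRNA and how much from unspliced host RNA was not tested.

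**Figure D4:**
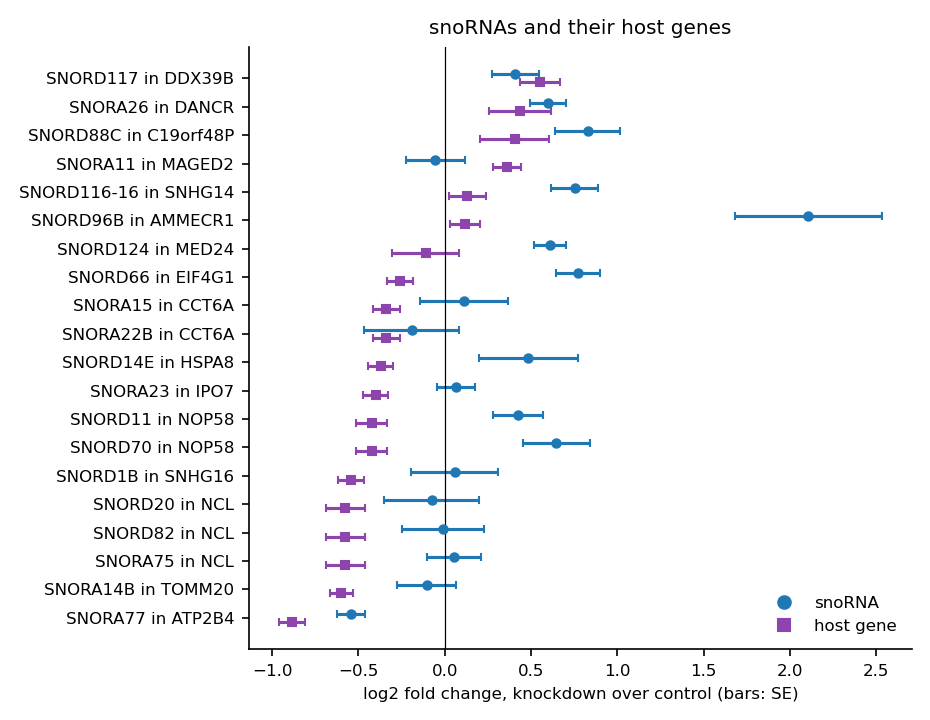
The x axis is the log2 fold change of knockdown over control with its SE, for a snoRNA (blue circle) and its host (purple square) in each row. Rows are pairs of a SNORD or SNORA member and a tested host in which member or host passed the test. Family-named members, such as RF00432 in N4BP2, are not drawn. For all hosts called lower, the snoRNA lies to the right of its host, and SNORA77 alone of these members is itself called lower.

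Of the 4 core proteins of C/D box particles, NOP58 and SNU13 fell, and the knockdown libraries of all 4 lay below all control libraries, beside 4.31% called lower and 15.9% without overlap in that direction over all genes tested (5.24% and 19.0% of protein-coding genes). NOP58 had a fold change of -0.42 on the log2 scale (SE 0.09, edgeR adjusted p = 0.0365), SNU13 of -0.41 (SE 0.09, edgeR adjusted p = 0.0448), NOP56 of -0.34 (SE 0.08, edgeR adjusted p = 0.0507) and FBL, the methyltransferase fibrillarin, of -0.36 (SE 0.11, edgeR adjusted p = 0.109). The calls on NOP58 and SNU13 were lost in 10 and 11 of 15 settings. Of the 4 H/ACA proteins none passed: DKC1, the pseudouridine synthase dyskerin, had -0.43 (SE 0.11, edgeR adjusted p = 0.0654), NHP2 0.40 (SE 0.22), NOP10 -0.23 (SE 0.14) and GAR1 -0.03 (SE 0.32).

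Of 15 assembly factors 14 were tested, and 1 fell, beside 4.31% called lower over all genes tested. A single call among 14 is no result about the assembly factors as a set. ZNHIT6, which takes part in the early assembly of C/D box particles, went from 40.1 ± 2.30 to 23.8 ± 1.47 CPM (log2 fold change -0.75, SE 0.09, edgeR adjusted p = 0.0043) and kept its call in all 15 other settings. NUFIP1, another assembly factor, had 64.9 CPM in control replicate 2 and 6.33 and 6.87 in the other controls, beside 2.97 to 5.36 in the knockdown (log2 fold change -2.55, SE 1.01, edgeR adjusted p = 0.179). None of 9 genes for trimming, exonuclease digestion or debranching passed.

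Family-named genes, of which 39 of 71 lie in no host gene, included the largest fitted fold changes and had the widest spread. RF00402 (ENSG00000201701) had 1, 2 and 4 counts in the controls and 39, 41 and 39 in the knockdown, a ratio of summed counts corrected for library totals of 18.4 (95% interval 8.65 to 46.7, counting error only; log2 fold change 4.12, SE 0.45, edgeR adjusted p = 0.00368). With 7 counts over the controls, it too reached the count sum and the filter only through the knockdown libraries, and neither the p nor the kept call is free of that choice. OSBPL10, a lipid transfer protein gene on the opposite strand, rose from 9.42 ± 1.03 to 14.3 ± 0.640 CPM (log2 fold change 0.59, SE 0.14, edgeR adjusted p = 0.0488). RF00432 (ENSG00000201863) had 30, 24 and 38 counts in the controls and 228, 65 and 171 in the knockdown (log2 fold change 2.41, SE 0.51, edgeR adjusted p = 0.0361), and its host N4BP2 rose as well (0.78, SE 0.13, edgeR adjusted p = 0.0178). The groups overlapped for neither gene.

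The other 5 that rose were RF00218 (ENSG00000201009), with 35, 34 and 10 counts in the controls and 241, 86 and 75 in the knockdown, RF00411 (ENSG00000202231), RF01210 (ENSG00000238645), a gene of the SNORA73 family (ENSG00000201816) and a gene of the U3 family (ENSG00000221461). Their log2 fold changes were 2.42, 1.61, 1.21, 2.22 and 0.77, with edgeR adjusted p-values from 0.0215 to 0.0488. The SNORA73 family gene had 127, 58 and 48 counts in the controls and 332, 570 and 102 in the knockdown, and its call was lost in 10 of 15 settings, the most of any called member. Some members had most of their counts in 1 library: RF00568 (ENSG00000212517) had 121 of its counts in knockdown replicate 2 and 4 to 11 in each other library (log2 fold change 2.63, SE 1.16, edgeR adjusted p = 0.221). SNORD62 (ENSG00000199411), family-named in GENCODE 29, had 105 counts in control replicate 1 and 3 to 16 elsewhere (log2 fold change -2.67, SE 0.93, edgeR adjusted p = 0.136).

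Replicates of family-named members differed more than those of the other classes. Their median coefficient of variation within a group was 47.8% in control and 51.6% in the knockdown, against 13.1% and 20.4% for SNORD and 13.8% and 12.7% for SNORA members. More than 50% of all counts fell in 1 library for 20 of the 71 family-named, 3 of the 75 SNORA and 2 of the 107 SNORD members. The count sum that admitted members lay among genes of this kind: RF00393 (ENSG00000212586) was just inside with 60 counts and RF00401 (ENSG00000206649) and RF01225 (ENSG00000239005) had 61, while RF00443 (ENSG00000200235) was just outside with 59 and SNORA80D (ENSG00000207217) had 57.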

How the data were processed

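RNA was depleted of ribosomal RNA, copied with dUTP in the second strand and sheared to roughly 300 bases, per the labels' protocols, and 6 libraries were sequenced in 1 lane. The values are raw counts of reads for each Ensembl gene, as deposited by the authors; per the submitters' processing notes CASAVA 1.7, GSNAP (its version a date), HTSeq and the build hg19 were used. Which annotation, HTSeq version and strand setting were used is not given in the sources used here, which makes the values of members that overlap a gene on the other strand uncertain. The authors' table of fold changes was not used here. Lines that name no gene stayed out of library sizes; reads assigned to genes were 11.9% to 13.7% of each library.

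Counts of all 57659 genes were filtered with filterByExpr (minimum count 10), TMM-scaled and fitted by quasi-likelihood (glmQLFit, glmQLFTest) in edgeR 4.0.16 (R 4.3.3) with group as the only term; the threshold was an adjusted p of 0.05. CPM values use TMM-scaled totals, and a log2 fold change is knockdown over control. Classes follow GENCODE 29 symbols, and hosts are genes of other types that hold a member on the same strand. Identity and copies came from alignment of GENCODE 29 sequences. Ratios of low counts have exact conditional 95% intervals. Pairs of libraries within a group differed by more than sampling noise (chi-square over degrees of freedom, 25.2 to 37.7) and were kept as separate. The fit was tested on simulated data. Alternatives were 3 scalings, 2 filters, DESeq2 1.42.0, limma 3.58.1 (voom), a robust prior, a replicate block, 2 thresholds and leaving out each library; the first 9 of these fits and the 6 without a library are the 15 settings named in the report.

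Members and lists were chosen with earlier results of these data known. Named were the called members, the 5 of SNORD and of SNORA with most counts, the cleavage list, hosts with at least 4 members, particle proteins and protein list genes that passed, genes at the count sum, the 3 largest fold changes each way in a class, and MACROH2A1. Some genes that this rule named are not reported here. Other genes (hosts of called members, called hosts and their members, SNORD88A, SNORD88B, SNORD114-3, SNORD32A, NUFIP1, copies and genes at 0) were added after their values were seen.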

Additional observations from a re-analysis of the deposited data

How the results depend on the processing

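Counts of members higher or lower in the knockdown depended on the processing, while no called member changed sign in any of the 15 other fits. With a sum of at least 1 count as the filter, 13 SNORD and 5 SNORA members were higher, and 13 family-named higher and 2 lower; with a sum of at least 60, 1 SNORA member was higher. DESeq2 called 19 SNORD and 11 SNORA members higher, limma-voom 4 family-named members higher, and a robust prior 13 SNORD, 7 SNORA and 4 family-named members higher. Over all classes and both directions, 40 of the 239 members tested passed with DESeq2, 17 with limma-voom and 26 with the robust prior. In the main fit 17 of the 239 passed. Over all genes 1277, 1219 and 1549 of 13445 passed, in place of 1104. The members' share, near that of all genes in the main fit, was thus well above it with DESeq2. With sums of at least 1 and 60 as filters, 35 and 15 of 253 members passed, beside 1278 and 1059 of all genes. The number of all genes tested changes with these filters and is not given here, so these counts cannot be read as shares of all genes. At an adjusted p under 0.1, 13 SNORD and 8 SNORA members were higher. At 0.01, 1 SNORD, 0 SNORA and 1 family-named member were higher, and 0 SNORD and 0 SNORA were lower. The calls over all genes at these thresholds are not reported here. Leaving out each library gave 2 to 7 SNORD higher and 0 to 2 lower, 0 to 2 SNORA higher and 0 to 1 lower, and 1 to 5 family-named higher. Over all genes, 427 to 564 passed in these fits. With the replicate number as a block, 3 SNORD, 1 SNORA and 2 family-named members were higher and 0 SNORD and 0 SNORA lower (416 of all genes in place of 1104). Deviations from the group mean had correlations of -0.03, -0.02 and -0.17 between same-numbered libraries, and of -0.14 to 0.17 between others. With 3 libraries in each group, these cannot decide whether the numbers pair the samples, and the labels do not say. Without the most abundant member of the class, the share ratio was 1.53 for family-named, 1.14 for SNORD and 1.07 for SNORA members. The SNORD and SNORA shares of the 2 groups then overlapped. Class medians stayed above 0 in all 15 fits (SNORD 0.16 to 0.29, SNORA 0.08 to 0.23, family-named 0.39 to 0.50). The cause of these differences was not tested, except that leaving out a library leaves fewer samples. Genes with few counts, mostly family-named, limit the precision.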

Other observations

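Small Cajal body RNA (scaRNA) genes, whose products guide the same modifications on spliceosomal RNA, mostly carry a type of their own in GENCODE 29; SCARNA10 and SCARNA18, which it types as snoRNA, are counted in the report. Of 16 tested with the type scaRNA, 11 had a positive fold change and the median log2 fold change was 0.13. Of the 16, 1 passed (6.25%, beside 8.21% over all genes tested). SCARNA3 had 375, 268 and 234 counts in the controls and 550, 371 and 298 in the knockdown, 60.8 ± 1.32 and 89.8 ± 16.5 CPM (SD, n = 3), without overlap (log2 fold change 0.56, SE 0.13, edgeR adjusted p = 0.0464). SCARNA21 also had knockdown libraries all above the controls, at 56.0 ± 4.24 and 69.8 ± 3.39 CPM, and did not pass (log2 fold change 0.32, SE 0.08, edgeR adjusted p = 0.0669). SCARNA1 and SCARNA7 had values in the other direction, at -0.26 (SE 0.18) and -0.24 (SE 0.11), with groups that overlapped. SCARNA11, at 420 ± 89.4 and 427 ± 53.3 CPM, had a log2 fold change of 0.02 (SE 0.17).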
